A study of Homo sapiens with 8 samples.

Results

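Binding sites of the progesterone receptor (PR) were examined around 6 genes of growth factor receptor signalling: the receptors EGFR, ERBB2, ERBB3 and IGF1R, the docking protein IRS2 and the inhibitor ERRFI1. The sites were those of the deposited lists that overlapped, by 1 bp or more, the gene with 50 kb on each side in hg19. The windows were EGFR on chromosome 7 from 55036000 to 55326000, ERBB2 on chromosome 17 from 37794000 to 37935000, ERBB3 on chromosome 12 from 56423000 to 56548000, IGF1R on chromosome 15 from 99142000 to 99558000, IRS2 on chromosome 13 from 110356000 to 110489000 and ERRFI1 on chromosome 1 from 8021000 to 8137000. After overlapping sites of different times were merged, the windows held 73 sites, of 43784 in the whole series.

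The cells were T47D-MTVL, human breast cancer cells of luminal type whose genome carries a reporter driven by the progestin-responsive promoter of mouse mammary tumour virus. PR was precipitated from cells given 10 nM of the synthetic progestin R5020 for 5, 30, 60 or 360 min and from unstimulated cells (0 min), and the DNA was sequenced (ChIP-seq). All cells had first been kept in charcoal-treated serum, which is poor in steroids, and then without serum. In further unstimulated cells the regions marked by histone H3 monomethylated at lysine 4 (H3K4me1, found at enhancers and around promoters), by H3 trimethylated at lysine 4 (H3K4me3, found at active promoters) and by RNA polymerase II were listed. A table of the 60 min sites adds, for R5020-treated and unstimulated cells, a normalized read number from DNA treated with micrococcal nuclease (MNase). This enzyme digests linker DNA and spares DNA wrapped in nucleosomes. The MNase libraries are not among the 8 samples.

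EGFR, ERBB2 and ERBB3 are receptors at the cell surface that pair with each other when a ligand of the epidermal growth factor family binds. ERBB2 binds no ligand of its own, and ERBB3 has little kinase activity and signals through its partners. IGF1R is the receptor for insulin-like growth factors, and IRS2 is phosphorylated by it and by the insulin receptor and recruits phosphoinositide 3-kinase. ERRFI1 (MIG6) binds activated receptors of the EGFR family and inhibits their kinase. Progestins and growth factor signals are known to act together on proliferation in the mammary gland and in T47D cells.

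The DNA just before the start is shown for EGFR and ERBB2, which had PR sites near the start. It is also shown for IGF1R, whose start had H3K4me3 but no PR site near it. The sequences are RefSeq's, read 5′ to 3′ in the build GRCh38, whose coordinates differ from those of the lists. Capitals mark CG pairs, the sites of DNA methylation that are dense in CpG island promoters. The table was matched by symbol for 5 of the 6 genes, all but ERBB3.
EGFR, 250 bases before the start, chr7:55018767-55019016, + strand, GRCh38: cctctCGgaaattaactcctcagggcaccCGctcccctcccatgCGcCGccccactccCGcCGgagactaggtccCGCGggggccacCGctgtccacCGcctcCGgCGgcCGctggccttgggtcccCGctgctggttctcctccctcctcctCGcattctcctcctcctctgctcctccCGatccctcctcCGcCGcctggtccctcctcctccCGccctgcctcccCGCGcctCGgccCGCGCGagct
ERBB2, 250 bases before the start, chr17:39687844-39688093, + strand, GRCh38: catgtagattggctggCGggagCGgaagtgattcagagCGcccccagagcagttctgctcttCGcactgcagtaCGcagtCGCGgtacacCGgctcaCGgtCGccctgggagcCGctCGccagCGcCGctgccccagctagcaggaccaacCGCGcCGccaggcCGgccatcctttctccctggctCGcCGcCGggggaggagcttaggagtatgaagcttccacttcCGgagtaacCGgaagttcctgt
IGF1R, 250 bases before the start, chr15:98648289-98648538, + strand, GRCh38: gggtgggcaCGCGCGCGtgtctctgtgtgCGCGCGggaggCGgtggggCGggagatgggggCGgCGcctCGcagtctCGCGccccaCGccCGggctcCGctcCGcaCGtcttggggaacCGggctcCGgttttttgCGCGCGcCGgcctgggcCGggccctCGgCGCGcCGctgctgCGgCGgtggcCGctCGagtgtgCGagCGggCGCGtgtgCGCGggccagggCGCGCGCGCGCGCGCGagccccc

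These stretches held 25 CG pairs at EGFR, 23 at ERBB2 and 48 at IGF1R, and those of ERRFI1 and IRS2 held 39 and 42, against a median of 11 over 35116 RefSeq promoters. A second RefSeq start of EGFR had 1 CG pair. Neither the palindromic progesterone response element, searched as GNACA, then NNN, then TGTNC, nor a single arm, searched as TGTTCT and its reverse complement AGAACA, was found on either strand in the 250 bases before these starts. Of all promoters of this length, 0.327% held the palindrome and 12.4% the arm. These stretches are not the PR sites, whose own sequence was not analysed here.

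Each of the 8 groups held 1 sample, so no difference between times or conditions could be set against a spread between samples and no p-value was computed. The PR lists held 844 sites at 0 min and from 22973 to 25872 sites at the times with hormone. The lists hold regions with no height or read number, and the depth of the libraries is unknown. A site's absence from a list is therefore no evidence that PR was not bound there.

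PR sites appeared in the lists of each of the 6 windows after hormone, and their number differed widely between the genes. Over the 6 windows 0 sites were listed at 0 min, 44 at 5 min, 45 at 30 min, 45 at 60 min and 39 at 360 min. At the mean density of the 0 min list, 0.340 sites would have lain in windows of this length, so the 0 carries little information. IGF1R held 28 of the 45 sites at 60 min (62.2%) in 34.1% of the window length, ERRFI1 7, EGFR 6, ERBB3 3, IRS2 1 and ERBB2 0. Per 100 kb this was 6.73 sites at IGF1R, 6.03 at ERRFI1, 2.40 at ERBB3, 2.07 at EGFR, 0.752 at IRS2 and 0 at ERBB2, against 0.805 over all chromosomes. The 6 windows together had 3.69 sites per 100 kb, and without IGF1R 2.11.

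**Figure D1:**
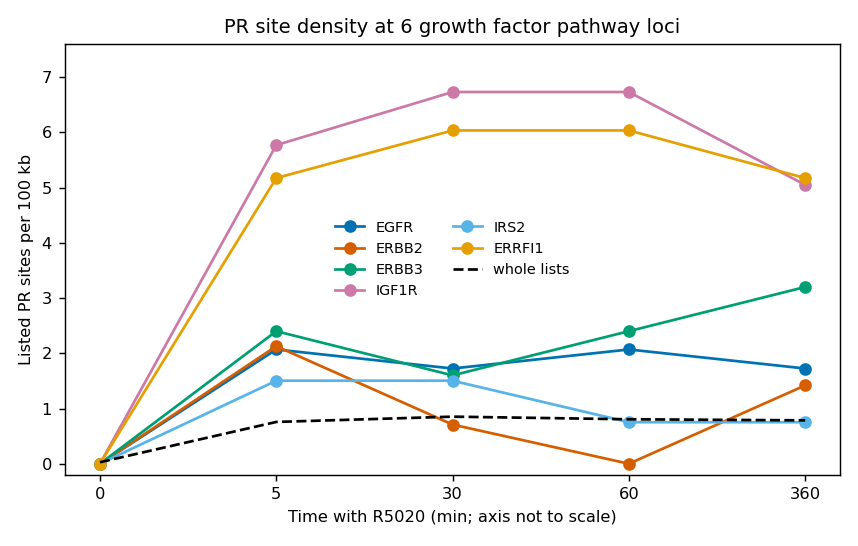
PR sites listed per 100 kb of each window (y axis) at 0, 5, 30, 60 and 360 min of R5020 (x axis, evenly spaced), with the whole lists as a dashed line. Points are 1 library each. IGF1R and ERRFI1 lie above 5 sites per 100 kb at each time with hormone, and ERBB2 is at 0 at 60 min.

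Membership over time was mixed. Of the 73 merged sites, 21 (28.8%, exact 95% interval 18.8 to 40.6%) were listed at all 4 times with hormone, against 22.8% in the whole series. Another 26 were listed at 1 time alone, and the share in the whole series was 41.5%. These were 11 at 5 min, 3 at 30 min, 7 at 60 min and 5 at 360 min, with shares in the whole series of 16.8%, 8.52%, 6.08% and 10.1%. Sites listed more often were wider: the median merged width was 506 bp at 4 times (252 to 889 bp), 445 bp at 3, 328 bp at 2 and 240.5 bp at 1 time (179 to 762 bp). In the whole series the same medians were 403, 368, 312 and 237 bp. A merged site takes in the sites of each list, so this width grows in part by construction.

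The persistence of the loci's sites was close to that of the whole 60 min list. Of their 45 sites, 25 were also in the 5 min list (55.6%, interval 40 to 70.4%). The 30 min list held 35 of them (77.8%, interval 62.9 to 88.8%) and the 360 min list 31 (68.9%, interval 53.4 to 81.8%). Over all 24436 sites of 60 min these shares were 53.7%, 77.6% and 70.6%, each inside its interval. At each of the other 3 times with hormone 22 of the 45 were listed (48.9%, 33.7 to 64.2%), against 41.9% of the list, and 0 of the 45 were listed at 0 min, against 0.364%. The intervals cover counting error over sites of 1 library and not variation between cultures. By locus, the share also listed at 5 min was 18 of 28 at IGF1R and 2 of 7 at ERRFI1, with intervals of 44.1 to 81.4% and 3.67 to 71.0% that overlap.

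**Figure D2:**
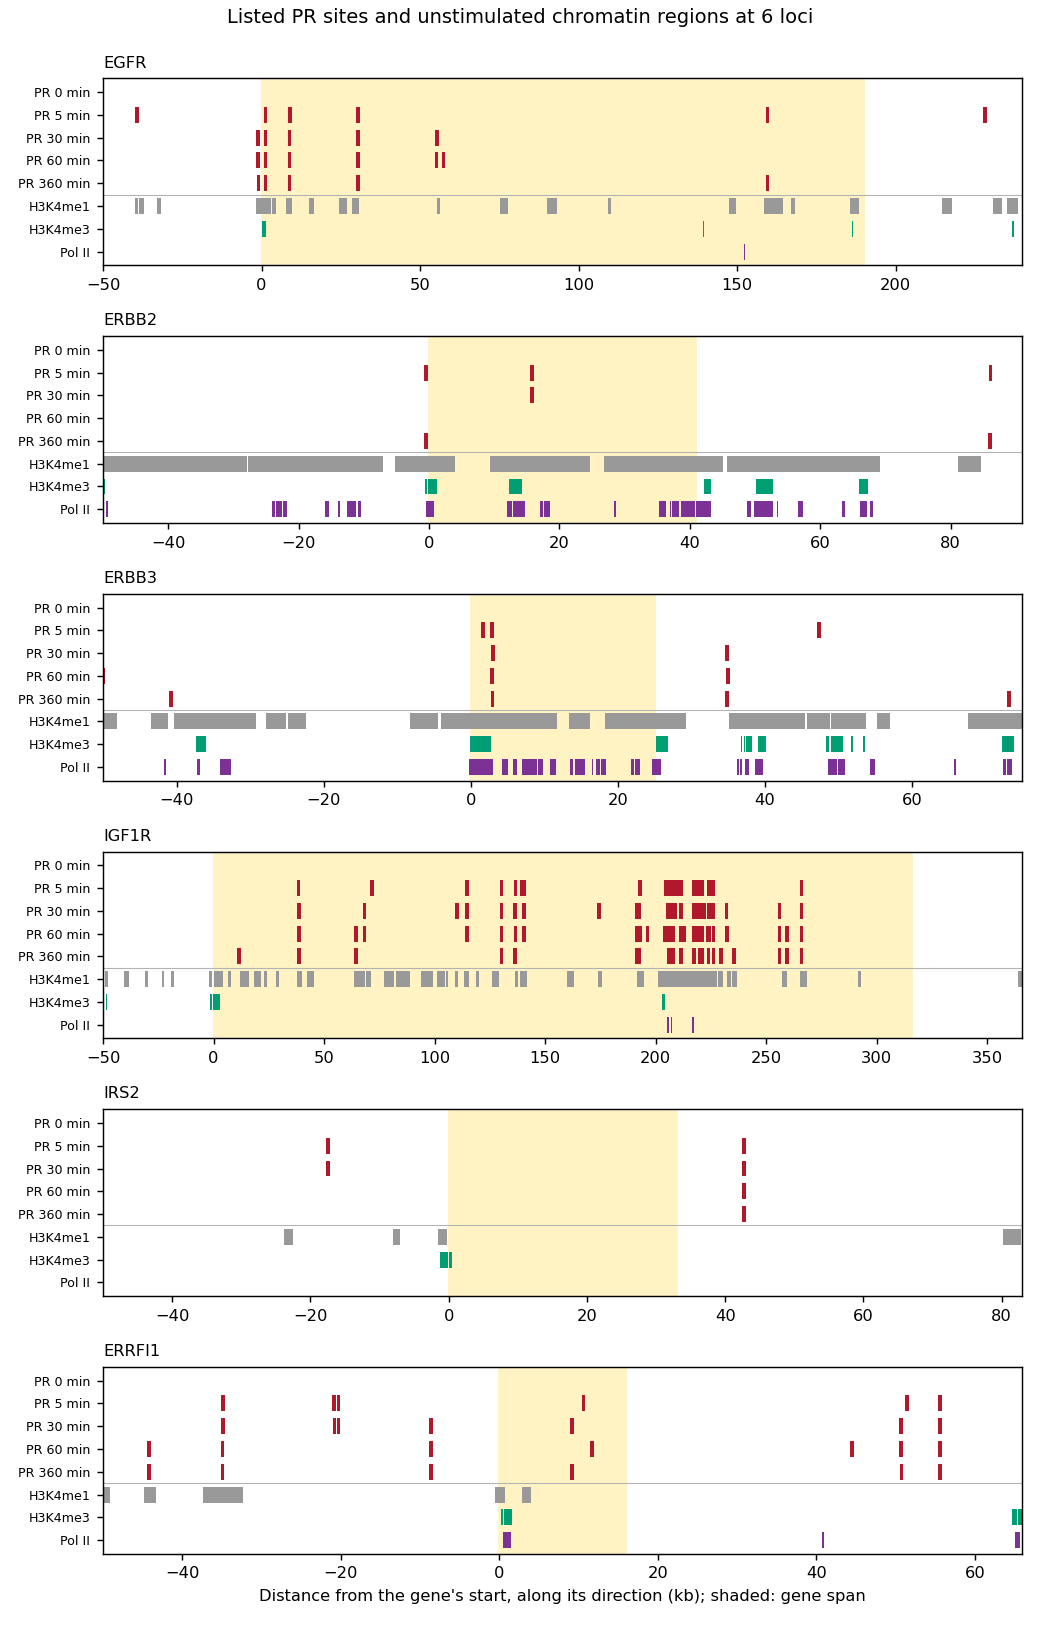
Each panel shows 1 window as distance in kb from the gene's start along its direction (x axis), with the gene span shaded. The upper 5 rows are PR sites by time (drawn at a minimum width so that they can be seen) and the lower 3 rows are H3K4me1, H3K4me3 and RNA polymerase II regions of unstimulated cells. All 40 IGF1R sites lie inside the gene span, and the ERBB2 and ERBB3 windows, with 3 and 7 merged PR sites, are largely covered by H3K4me1 regions.

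In the position of the sites, IGF1R also differed from the shorter genes. All 40 of its merged sites lay inside the gene span, which makes up 76.0% of the window, and 0 lay upstream or downstream. At EGFR 6 of 9 lay inside the span (65.5% of the window), at ERRFI1 3 of 12 (13.8%), at ERBB3 2 of 7 (20% of the window), at ERBB2 1 of 3 and at IRS2 0 of 2. Gene ends here are the window ends less 50 kb, given to the nearest kb, so distances from a start are good to about 1 kb. Negative distances are upstream. Other genes share most windows. By RefSeq's GRCh38 annotation, 7 other protein-coding genes lie within 50 kb of ERBB2 (among them GRB7 and IKZF3) and 8 around ERBB3 (among them PA2G4 and ESYT1). There was 1 around each of IGF1R (PGPEP1L), IRS2 (LOC124903211) and ERRFI1 (PARK7), and 0 around EGFR. A site in such a window need not belong to the gene it is grouped with.

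Of the 9 PR sites of EGFR 6 lay between -1.13 and 57.4 kb from the start, in a gene of 190 kb. Nearest to the start at 60 min lay EGFR-2 and EGFR-3. Which of them was closer cannot be told, since distances are good to about 1 kb. EGFR-2, on chromosome 7 from 55084608 to 55085141, was at -1.13 kb. Its widths were 529, 527 and 187 bp at 30, 60 and 360 min, and it was not listed at 5 min. EGFR-3 lay from 55087105 to 55087357 at 1.23 kb, inside an H3K4me3 region at the start (55086142 to 55087501). EGFR-3 was listed at all 4 times with hormone, at 238, 249, 241 and 202 bp, and its width varied little.

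Further into EGFR 2 more sites were listed at all 4 times with hormone. EGFR-4 (55094644 to 55095174, 8.91 kb) had widths of 495, 348, 443 and 228 bp at 5, 30, 60 and 360 min. EGFR-5 (55116244 to 55116617, 30.4 kb) had widths of 294, 275, 344 and 287 bp. Both overlapped H3K4me1 regions and neither overlapped H3K4me3 or RNA polymerase II. The remaining sites were each listed at only some of the times. EGFR-6 at 55.2 kb was listed at 30 and 60 min (251 and 699 bp) and EGFR-7 at 57.4 kb at 60 min alone. EGFR-8 at 160 kb was listed at 5 and 360 min (255 and 328 bp). EGFR-1 at -39.3 kb and EGFR-9 at 228 kb were listed at 5 min alone. Of the 9 sites 7 overlapped H3K4me1 regions, against 42.1% of all merged sites, and these regions covered 16.5% of the window. At 60 min it was 5 of 6 sites (35.9 to 99.6%), an interval that holds the 48.2% of all 60 min sites.

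ERBB2 had the lowest density of the 6 windows at 30 and 60 min, but not at 5 or 360 min. Its window had 2.13, 0.709, 0 and 1.42 sites per 100 kb at 5, 30, 60 and 360 min, against 0.757, 0.852, 0.805 and 0.786 over all chromosomes. It held 3 merged sites, each listed at 5 min and at 1 other time. ERBB2-1, on chromosome 17 from 37843309 to 37843754 at -0.47 kb, had widths of 439 and 394 bp at 5 and 360 min and was not listed at 30 or 60 min. It overlapped regions of all 3 chromatin lists at the ERBB2 start used here. The widest H3K4me3 region of the window (2073 bp) lay inside the gene, from 12.2 to 14.3 kb, and polymerase regions overlapped it. Whether this region marks another start of ERBB2 was not tested. ERBB2-2 (37859601 to 37859978, 15.8 kb), inside the gene and in an H3K4me1 region, was 377 bp wide at 5 min and 187 bp at 30 min. ERBB2-3 (37929937 to 37930216, 86.1 kb) lay past the gene, in no listed chromatin region, with 242 bp at 5 min and 271 bp at 360 min.

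The 3 PR sites at ERBB2 lay in the window most covered by H3K4me1 among the 6. H3K4me1 regions covered 79.6% of it, H3K4me3 regions 6.40% and RNA polymerase II regions, 29 in number, 17.1%, against 7.64%, 0.549% and 0.641% of all chromosomes. ERBB3 was similar, with 65.1%, 9.82% and 17.6% and 32 polymerase regions. IGF1R, with the most PR sites, had 29.0%, 1.33% and 0.578%, and EGFR 16.5%, 0.944% and 0.102%. IRS2 had 4.70%, 1.20% and 0 polymerase regions, and ERRFI1 8.54%, 2.06% and 1.64%. Across these 6 windows, then, extent of listed chromatin and density of PR sites did not run in the same order.

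**Figure D3:**
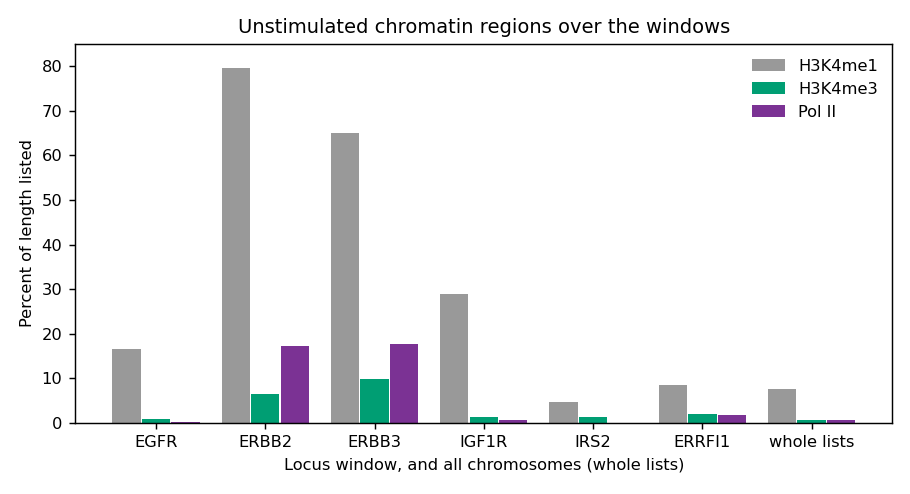
Percent of length (y axis) inside H3K4me1, H3K4me3 and RNA polymerase II regions of unstimulated cells, for each window and for all chromosomes (x axis), 1 library per bar. ERBB2 and ERBB3 are highest in all 3, with H3K4me1 over 79.6% and 65.1% of their windows.

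ERBB3 had 1 long-listed PR site close to its start. ERBB3-4, on chromosome 12 from 56475661 to 56476230 at 2.95 kb, was listed at all 4 times with hormone, with widths of 486, 486, 419 and 353 bp. It overlapped regions of all 3 chromatin lists, among them a polymerase region that covers the start (56472811 to 56476068). ERBB3-3, at 1.69 kb in the same 3 regions, was listed at 5 min alone (254 bp). ERBB3-5 at 34.9 kb, past the gene's end, was listed at 30, 60 and 360 min (404, 511 and 385 bp), and its 60 min site alone touched the edge of an H3K4me1 region (56508145 to 56518467). The other 4 were listed at 1 time each: ERBB3-1 at 60 min (402 bp, across the upstream edge of the window), ERBB3-2 and ERBB3-7 at 360 min (183 and 235 bp) and ERBB3-6 at 5 min (287 bp). All but ERBB3-2 overlapped H3K4me1 regions, and ERBB3-7 overlapped regions of all 3 lists.

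IGF1R held the densest group of PR sites. A stretch of 44.5 kb inside the gene, on chromosome 15 from 99383215 to 99427718 (191 to 236 kb from the start), had 25 merged sites with gaps of at most 10 kb between neighbours. It was chosen as the longest such row of sites after its values were seen, and is a description. The lists gave it 0, 16, 17, 18 and 13 sites in order of time. Of its 25 merged sites 10 were listed at all 4 times with hormone, against 22.8% in the whole series. No interval was computed for this share. At 60 min the median gap between neighbouring sites of the stretch was 1005 bp, against 33987 bp over the whole 60 min list. A shorter gap was to be had from the rule, which joined sites at gaps of at most 10 kb. The comparison is therefore no separate evidence of density.

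Few parts of the genome held as many, but this too is a description and no separate evidence of density. The tile named first was picked as the IGF1R tile with the most sites, and the loci were chosen with earlier results known. With the chromosomes divided into 30364 consecutive tiles of 100 kb, the tile from 99400000 to 99500000 held 14 sites of 60 min, a number reached by 24 tiles (0.0790%), the highest having 20. The tile before it held 11, a number reached by 80 tiles (0.263%). At least 1 site was in 37.6% of tiles. One H3K4me1 region of 13265 bp in the stretch (99401429 to 99414694) overlapped 6 PR sites of 60 min, a number reached by 59 of the 73263 H3K4me1 regions (0.0805%), of which 12.2% overlapped at least 1. Its neighbour of 8235 bp (99393036 to 99401271) overlapped 5. Both regions were picked for their number of sites. They were ranked among regions of all widths, and a wider region has more room for sites.

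**Figure D4:**
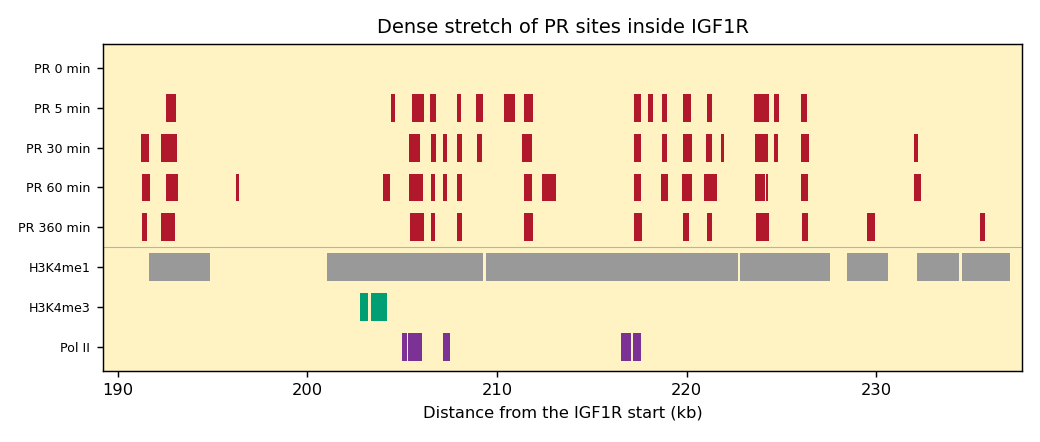
The dense stretch inside IGF1R, as distance from the gene's start in kb (x axis), with PR sites by time in the upper rows and chromatin regions of unstimulated cells in the lower rows, drawn to scale. The stretch has 18 sites at 60 min, and all 5 polymerase regions of the IGF1R window lie in it.

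The widest sites of IGF1R listed at all 4 times with hormone were in this stretch. IGF1R-18 (99397338 to 99398165, 206 kb) had widths of 665, 599, 779 and 732 bp at 5, 30, 60 and 360 min. IGF1R-30 (99412940 to 99413582, 221 kb) had 258, 285, 642 and 245 bp and was widest at 60 min. IGF1R-14 (99384284 to 99385173, 193 kb) had 504, 812, 611 and 726 bp. IGF1R-32 (99415569 to 99416350, 224 kb), also at all 4 times, covers 2 sites of the 60 min list, of 545 and 125 bp. All 4 overlapped H3K4me1 regions, and IGF1R-18 also overlapped an RNA polymerase II region.

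The polymerase regions listed at IGF1R lay inside the gene, and none was listed at its start. Absence from this list is no evidence that polymerase was absent. At EGFR, too, the 1 listed polymerase region lay inside the gene, 152 kb from the start. All 5 RNA polymerase II regions of the IGF1R window lay between 205 and 218 kb from the start, inside the stretch. Of these, 3 overlapped a PR site of 60 min. Around the start 4 H3K4me3 regions ran from -1.65 to 2.75 kb with 0 polymerase regions, and 3 more H3K4me3 regions lay in the stretch, at 203 to 204 kb. The PR site nearest to the start at 60 min, IGF1R-2 (99230267 to 99230834), was at 38.6 kb. It was listed at all 4 times with hormone and lay in an H3K4me1 region. It was 202, 495 and 526 bp wide at 5, 60 and 360 min, and at 30 min it covered 2 listed sites, of 271 and 286 bp. Outside the stretch IGF1R had 15 further merged sites, 4 of them at all 4 times with hormone, against 22.8% in the whole series.

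IRS2 had 2 merged sites, both outside the gene and outside every listed chromatin region. IRS2-1, on chromosome 13 from 110396074 to 110396401, lay 42.8 kb from the start and past the gene's end, and was listed at all 4 times with hormone, at 308, 327, 279 and 246 bp. IRS2-2 (110456288 to 110456528, -17.4 kb) was listed at 5 and 30 min, at 231 and 222 bp. The IRS2 start had 2 H3K4me3 regions and no polymerase region.

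ERRFI1 had many PR sites for the length of its window, most of them outside the listed chromatin regions. H3K4me1 regions covered 8.54% of this window, against 7.64% of all chromosomes. The window held 12 merged sites, of which 10 overlapped none of the 3 kinds of region. At 60 min this was 5 of 7 sites (71.4%, 29.0 to 96.3%), against 50.4% of all 60 min sites, which lies inside the interval. Of the 12 sites 2 were listed at all 4 times with hormone. ERRFI1-1, on chromosome 1 from 8031126 to 8031665, lay past the gene's end at 55.6 kb and was 539, 393, 463 and 425 bp wide. ERRFI1-11 (8121715 to 8122046, -34.9 kb) was 247, 275, 256 and 227 bp wide and lay in an H3K4me1 region.

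Closest to the ERRFI1 start at 60 min was ERRFI1-8 (8095487 to 8095773, -8.63 kb), with 193, 266 and 257 bp at 30, 60 and 360 min. Inside the gene there were 3 sites, at 9.16, 10.6 and 11.7 kb, with no time common to all 3. The sites ERRFI1-9 and ERRFI1-10, near -20.3 and -20.8 kb, were both listed at 5 and 30 min and at neither later time. ERRFI1-3 (50.7 kb) was listed at 30, 60 and 360 min, ERRFI1-12 (-44.2 kb) at 60 and 360 min, ERRFI1-4 (44.5 kb) at 60 min alone and ERRFI1-2 (51.4 kb) at 5 min alone. The ERRFI1 start itself had H3K4me3 and polymerase regions and no PR site at any time.

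Over the 6 loci, PR sites of 60 min lay in H3K4me1 regions more often than all sites of that list. The share was 35 of 45 (77.8%, 62.9 to 88.8%), against 48.2% of all 60 min sites. It rested on IGF1R, with 25 of 28 (89.3%), and without that locus it was 10 of 17 (58.8%, 32.9 to 81.6%), an interval that holds 48.2%. The windows were themselves rich in the mark, with 31.0% of their length in H3K4me1 regions against 7.64% of all chromosomes. The 35 sites lay in 21 regions, 12 of them at IGF1R, so they are not independent of each other. H3K4me3 regions held 3 of the 45 sites (6.67%, 1.40 to 18.3%) and RNA polymerase II regions 4 (8.89%, 2.48 to 21.2%), against 5.12% and 8.92% of all 60 min sites. Outside all 3 kinds of region lay 10 of the 45 (22.2%, 11.2 to 37.1%), against 50.4%. These are the same 10 sites that lay outside H3K4me1 regions. Without IGF1R the share was 7 of 17 (41.2%, 18.4 to 67.1%), an interval that holds 50.4%. Of the 73 merged sites 52 lay in H3K4me1, 6 in H3K4me3 and 7 in polymerase regions, against 42.1%, 4.10% and 6.99% of the 43784.

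MNase reads at the sites of the loci were mostly lower with R5020, to about the extent seen over the whole table. In the authors' deposited table the 45 sites had from 5 to 253 normalized reads (median 75) with R5020 and from 13 to 275 (median 116) in unstimulated cells. R5020 was below unstimulated at 36 of 45 sites (80.0%, 65.4 to 90.4%) and above it at 9, against 78.0% of all sites below and 22.0% at or above. The median log2 ratio of R5020 over unstimulated was -0.41 (95% interval of the median over sites -0.54 to -0.25), and over the table's 24436 sites it was -0.37. By locus the medians were -0.35 at IGF1R (28 sites), -0.49 at EGFR (6), -0.54 at ERBB3 (3), -0.54 at ERRFI1 (7) and -0.77 at the IRS2 site. ERBB2, with no site at 60 min, has no MNase value. No source used here says how the authors scaled the MNase columns, so a shift common to all sites and a difference in scaling cannot be told apart.

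**Figure D5:**
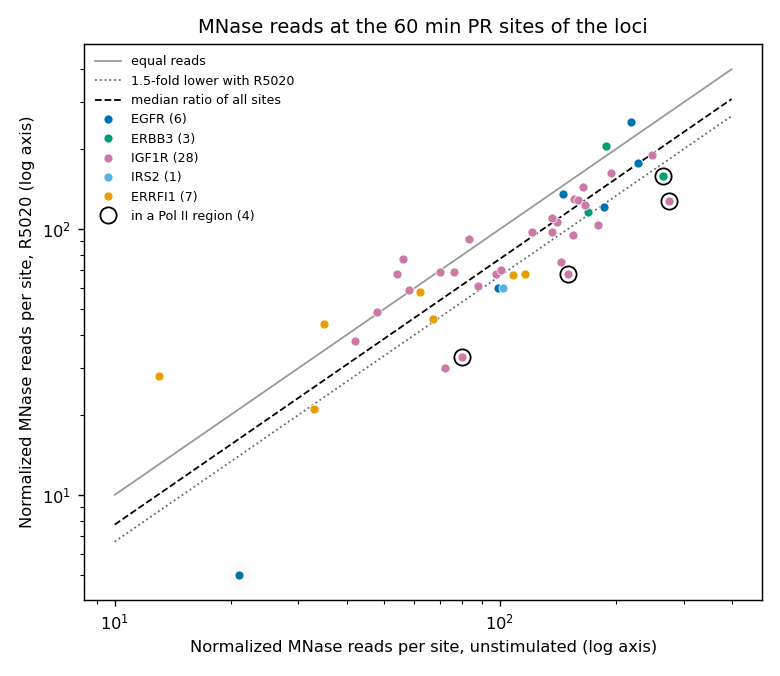
Normalized MNase reads per 60 min PR site in R5020-treated cells (y axis, log scale) against unstimulated cells (x axis, log scale), coloured by locus, 45 sites. Lines mark equal reads, a ratio 1.5-fold lower with R5020 and the median ratio of the whole table; rings mark the 4 sites in RNA polymerase II regions, which all lie below the 1.5-fold line.

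A difference of 1.5-fold or more was used as the size to name. By it 15 of the 45 sites (33.3%, 20 to 49.0%) were lower with R5020, against 34.1% of the table, and 1 site (2.22%) was higher, against 2.66%. When ratios were divided by the median ratio of all sites, 5 of the 45 were lower by that size. The share of the table after this division was not computed, and the 34.1% is for undivided ratios. Undivided and without IGF1R, 8 of 17 were lower by that size. The lowest ratio was at EGFR-3, the site in the H3K4me3 region at the EGFR start, with 5 reads with R5020 and 21 unstimulated (ratio 0.238). The highest was at ERRFI1-12, with 28 reads with R5020 and 13 unstimulated (ratio 2.15). Both ratios rest on few reads.

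The lowest ratios within IGF1R lay in the dense stretch, some but not all of them side by side. IGF1R-18 had 128 reads with R5020 and 275 unstimulated (ratio 0.465), IGF1R-19 had 30 with R5020 and 72 unstimulated (0.417) and IGF1R-20 had 33 with R5020 and 80 unstimulated (0.413), neighbours in the map. Further on, IGF1R-26 had 68 with R5020 and 150 unstimulated (0.453). Of these 4 sites, IGF1R-18, IGF1R-20 and IGF1R-26 overlapped the polymerase regions of the stretch. Between them IGF1R-21 had 38 with R5020 and 42 unstimulated (0.905) and IGF1R-24 had 110 with R5020 and 137 unstimulated (0.803), so the low values did not fill the stretch. The highest ratio of the locus, 1.38, was at IGF1R-9 (137 kb), with 77 reads with R5020 and 56 unstimulated.

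All 4 sites of the loci in polymerase regions, the 3 of IGF1R and ERBB3-4 (158 reads with R5020 and 266 unstimulated, ratio 0.594), were lower with R5020 by 1.5-fold or more. Their median log2 ratio was -1.12, against -0.37 at the other 41 sites. The whole table shows the same split, with -1.02 at its 2180 sites in polymerase regions and -0.33 at the others. For H3K4me1 the loci did not show the table's split: the median was -0.39 at the 35 sites in such regions (-0.54 to -0.25) and -0.59 at the 10 outside (-0.77 to 0.33), where the table has -0.58 and -0.20. The interval of the 10 outside holds both values of the table.

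At EGFR, ERBB3 and ERRFI1, as at IGF1R, most ratios were below 1 and some above. Without IGF1R 13 of 17 sites were below 1 and 4 above, and at IGF1R 23 of 28 were below and 5 above. At EGFR, EGFR-6 had 253 reads with R5020 and 219 unstimulated (1.16), EGFR-5 had 136 with R5020 and 146 unstimulated (0.932), EGFR-2 had 177 with R5020 and 228 unstimulated (0.776), EGFR-4 had 121 with R5020 and 186 unstimulated (0.651) and EGFR-7 had 60 with R5020 and 99 unstimulated (0.606). ERBB3-5 had 206 reads with R5020 and 189 unstimulated (1.09) and ERBB3-1 had 116 with R5020 and 169 unstimulated (0.686). The IRS2 site had 60 reads with R5020 and 102 unstimulated (0.588). Among the ERRFI1 sites with at least 20 unstimulated reads, the lowest was ERRFI1-1, with 68 reads with R5020 and 116 unstimulated (0.586), and the highest ERRFI1-3, with 44 with R5020 and 35 unstimulated (1.26).

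By persistence, the median log2 MNase ratio was -0.54 over the 22 sites of 60 min also listed at the other 3 hormone times (-0.77 to -0.25) and -0.30 over the other 23 (-0.53 to -0.02). These intervals overlap. In the table the same medians were -0.48 and -0.30.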

How the data were processed

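PR ChIP-seq was measured in 5 samples and chromatin ChIP-seq in 3, with 1 sample per group. The authors deposited 1 list of regions per sample, in hg19 coordinates per the submitters' processing notes. Aligner, peak caller, thresholds, input and depth are not stated in the sources used here. Coordinates are those of the lists (counting from 0 or 1 is not stated), and a width is end minus start. The authors' MNase values are whole numbers that the file headers call normalized reads per site, and they were treated as a score, never as raw counts. The authors' deposited ratio column, unstimulated over R5020, was checked against these values (largest gap 0.005) and not printed. Ratios here are R5020 over unstimulated and were computed from the 2 score columns. Whether a site overlaps a chromatin region was computed from the deposited lists, not taken from the authors' deposited yes or no columns, which are of no numeric unit.

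The loci and lists were chosen with earlier results of these data known. Sites were shared at an overlap of 1 bp or more. Shares carry exact (Clopper-Pearson) 95% intervals, and medians an interval from binomial order statistics, over sites and not cultures. Sites named in full were those at 0 min, the 3 widest at all 4 times with hormone, the one nearest the start at 60 min, the lowest and highest MNase ratio (at least 20 unstimulated reads) per locus and each site of loci with 8 or fewer; others were named after their values were seen. The list of other pathway genes was not analysed here, since the gene table is on GRCh38. Overlap counting was tested on simulated regions. Python 3.11.15, NumPy 2.4.6, SciPy 1.17.1 and Matplotlib 3.10.9 were used.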

Additional observations from a re-analysis of the deposited data

How the results depend on the processing

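Of 65 values recomputed for 14 results, 47 stayed within 1.5 times the reported count or within the reported interval. These 47 include the counts at 0 min, which were 0 and could only stay 0 under the changes made. With the wider 50% of each PR list, which removes sites by construction, the loci held 28, 21, 27 and 20 sites at 5, 30, 60 and 360 min, 2.21 per 100 kb at 60 min and 9 merged sites at all 4 times with hormone. The share of 60 min sites listed at 360 min was then 44.4% and the share in H3K4me1 regions 88.9%. Leaving out the IGF1R locus, an alternative chosen after the data were seen, gave 20, 17, 17 and 18 sites, 2.11 per 100 kb, 7 merged sites at all 4 times with hormone, 58.8% in H3K4me1 regions and 8 sites with MNase reads lower by 1.5-fold or more. Dividing MNase ratios by the median of all sites, which removes the shift common to the table, gave a median log2 ratio of -0.040 and 5 such sites. Windows of 10 kb each side, reciprocal overlap of 50%, midpoints, wider chromatin regions, joining sites within 500 bp, a pseudocount of 5 and a minimum of 20 reads moved no value recomputed under them beyond these limits. No paired analysis was possible because each group holds 1 sample. With no depth or replicate, changes between lists at single sites have no check, and the 0 to 7 sites of 60 min per locus outside IGF1R give wide intervals.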
